A study of Mus musculus with 10 samples.

Results

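Adhesion genes were examined in MLL-AF9 leukemia cells treated with inhibitors of the MLL1 and MLL-AF9 transcription machinery. They were 37 genes chosen by symbol as the integrin subunits, the selectins P and E, their ligand PSGL-1, the immunoglobulin-family adhesion molecules and CD44. Of the 24015 genes in the count table these 37 comprised 18 integrin alpha subunits, 8 integrin beta subunits, 2 selectins, the selectin ligand gene Selplg, 7 immunoglobulin-family genes and the hyaluronan receptor gene Cd44. The cells, called MAF9, derive from C57BL/6 mouse bone marrow into which the MLL-AF9 fusion was transduced, and all groups shared a medium of IMDM, 15% FBS and IL-3 at 10 ng/ml. Each of 5 groups had 2 libraries, described as biological duplicates, taken after 4 days. The groups were DMSO as the vehicle control, MM-401, which blocks the contact of MLL1 with WDR5, EPZ5676 (labelled EPZ), an inhibitor of the H3K79 methyltransferase DOT1L, MI-2-2 (labelled MI), which blocks MENIN, and iBET, a bromodomain inhibitor, each at its IC50 dose. As a model the series is limited to a culture of transduced cells in IL-3 and to 1 time and 1 dose per inhibitor.

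Integrins are heterodimers of an alpha and a beta subunit that bind matrix proteins or ligands on other cells once talin and kindlin have switched them to the active form. The β2 integrins, which share the Itgb2 chain (CD18), are the leukocyte family, and their alpha chain Itgam (CD11b) is the standard surface marker of maturing myeloid cells. Selectins and PSGL-1 mediate rolling of leukocytes on the vessel wall, integrins mediate the firm arrest that follows, and the immunoglobulin-family molecules ICAM and VCAM are the counter-receptors on which they arrest.

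Library depth lay between 20394762 and 29473127 reads counted on genes. DMSO replicate 2 stood apart from the other libraries. It held 3630 reads on Y-linked genes, against 0 to 2 in each of the other 9 libraries, and 4.76 CPM (reads of a gene relative to all reads counted) of Xist against 928 to 3051, so the 2 DMSO libraries did not carry the same sex-linked transcripts. Within DMSO 19.1% of the 12971 genes tested differed by over 2-fold between the libraries (0.1 CPM added), against 3.20% to 5.87% within the inhibitor groups. The adhesion genes called against DMSO are therefore also given without DMSO replicate 2, by value or within a range over the libraries left out. That fit leaves a single DMSO library as the control. MM-401 serves as a further reference. Counts over the marker lists and the further adhesion lists were made with both DMSO libraries only. Markers of the labelled cell type were present, with summed levels of 8 myeloid progenitor genes between 9898 and 13700 CPM in DMSO, while 8 T and B cell markers summed to at most 1.22 CPM in any library.

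Expression is given as CPM scaled with TMM factors (trimmed mean of M-values), per library in the order replicate 1, replicate 2. Where genes are compared with each other, the level is divided by the length of the gene's exons in kilobases. On that length-scaled measure Itgb2 ranked first of the 37 genes in all 5 groups, with group means between 206 CPM per kb in DMSO and 576 CPM per kb with MI-2-2. Next in DMSO came Itgb1, the beta chain of the matrix receptors, at 85.9 CPM per kb, Itgam at 75.6 CPM per kb and Selplg at 65.8 CPM per kb. The DMSO libraries of Itgam spanned those of Itgb1 and overlapped those of Selplg, so that its place is not resolved, while Itgb1 exceeded Selplg in both. At the other end 9 genes did not pass the filter on low counts: Itga2, Itga3, Itga9, Itga11, Itgad, Itgb6, Itgb8, Icam4 and Esam. None of these 9 had more than 16 reads in a library (Itgad, in DMSO replicate 2), and Itgb8 had no read in any, so no statement on change is made for them.

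**Figure D1:**
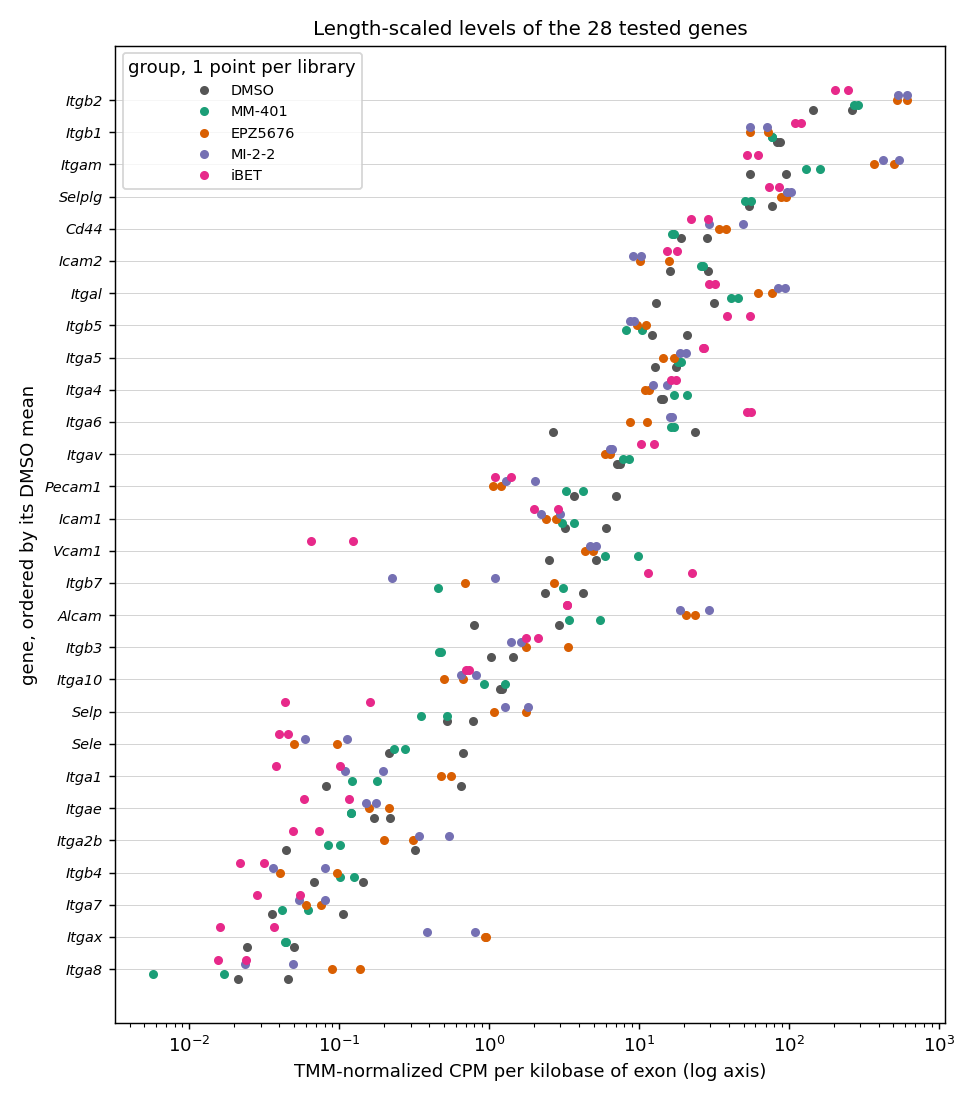
Length-scaled level (TMM-normalized CPM per kilobase of exon, log axis) of the 28 tested adhesion genes in each of the 10 libraries, colored by group, with genes ordered by their DMSO mean. Itgb2 lies highest in every group, Itgam approaches it with EPZ5676 and MI-2-2 (438 and 486 CPM per kb against 572 and 576 for Itgb2), and Vcam1 falls out of its place in the 2 iBET libraries.

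How many of the adhesion genes responded was asked for each inhibitor with edgeR's quasi-likelihood test over all 12971 genes (adjusted p under 0.05, called below). With EPZ5676 9 of the 28 tested adhesion genes were called against DMSO, 6 higher and 3 lower, which is 32.1% of them beside 38.1% of all genes tested (18.7% higher and 19.4% lower). With MI-2-2 10 were called, 6 higher and 4 lower, or 35.7% beside 41.4% of all genes (20.2% higher and 21.2% lower). With iBET 7 were called, 3 higher and 4 lower, or 25.0% beside 13.9% (6.38% higher and 7.54% lower). With MM-401 no adhesion gene was called, beside 0.0% of all genes. Against DMSO the shares for EPZ5676 and MI-2-2 were thus below those of all genes. With MM-401 as the reference they were above, at 14 of 28 beside 33.3% for EPZ5676 and 42.9% beside 35.7% for MI-2-2. For EPZ5676 and MI-2-2 the order of these shares therefore depended on the reference. With iBET the share was above that of all genes against MM-401 too (21.4% beside 11.4%). Whether the adhesion genes as a set responded more often than other genes was not tested. What follows concerns individual members. Median log2 fold changes against DMSO over the 28 genes were -0.001 with EPZ5676, 0.07 with MI-2-2, -0.41 with iBET and -0.23 with MM-401, beside -0.06, -0.05, -0.04 and -0.01 over all genes tested. These comparisons share the DMSO libraries and are not independent of each other.

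Without DMSO replicate 2 12 adhesion genes were called with EPZ5676, 9 with MI-2-2, 10 with iBET and 0 with MM-401, beside 35.5%, 37.6%, 21.6% and 0.0% of all genes in the same fits. Without DMSO replicate 1 there were 15, 15, 16 and 9, beside 51.0%, 53.9%, 27.9% and 10.2%. The direction of the calls depended in part on scaling. With scaling by total counts in place of TMM, EPZ5676 gave 5 higher and 9 lower and MI-2-2 5 higher and 6 lower, since the median of all genes then moved to -0.23 and -0.21 on the log2 scale. Among the genes called with TMM, each kept its direction under total-count scaling.

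**Figure D2:**
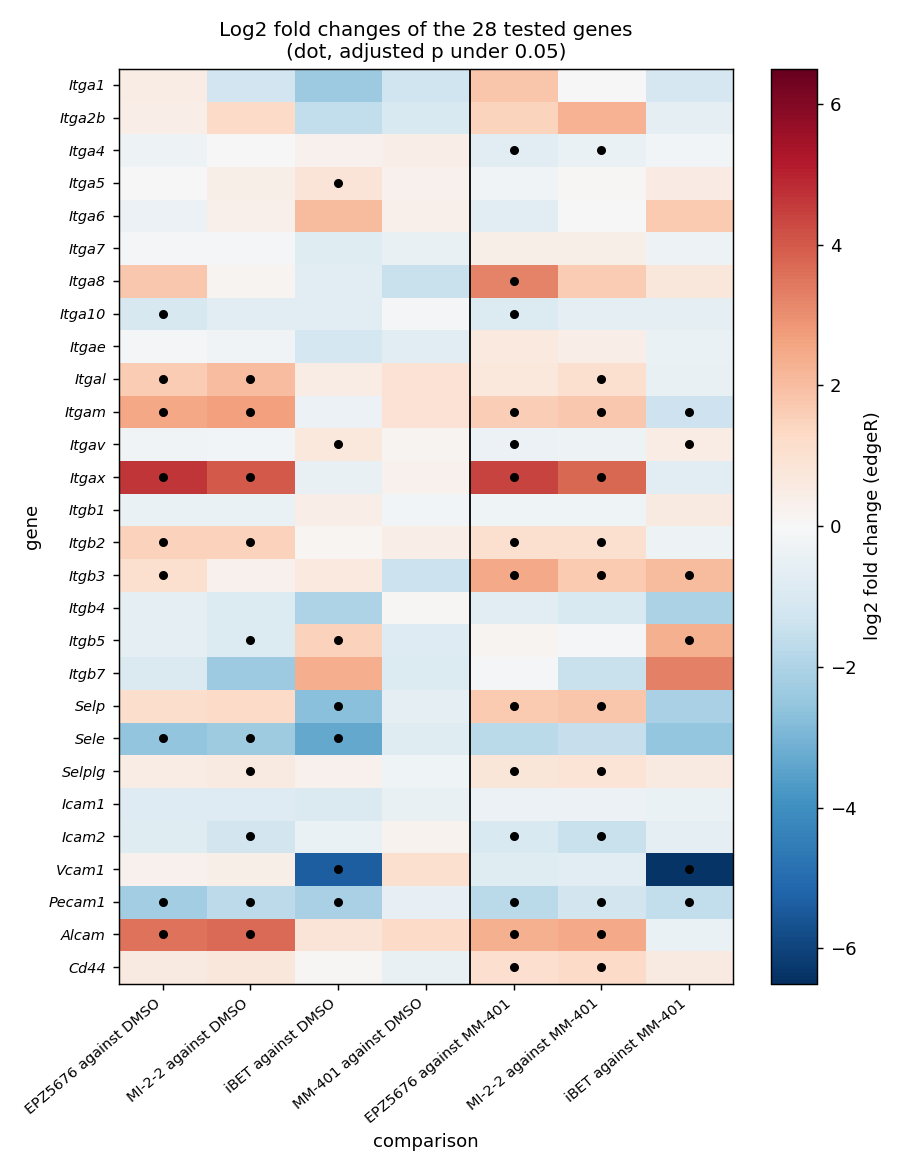
Log2 fold changes (edgeR, color scale) of the 28 tested adhesion genes, in rows, for each inhibitor against DMSO on the left of the line and against MM-401 on the right, with a dot where the adjusted p was under 0.05. The β2 chains Itgam, Itgax and Itgb2 and Alcam are higher for EPZ5676 and MI-2-2 against both references, Pecam1 is lower for EPZ5676, MI-2-2 and iBET against both, and Vcam1 is lowest with iBET.

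Of the β2 integrin genes, the beta chain Itgb2 and the alpha chains Itgam, Itgal and Itgax rose against DMSO with both EPZ5676 and MI-2-2. Itgb2, the shared beta chain, measured 812 and 444 CPM in DMSO, 827 and 892 with MM-401, 1617 and 1871 with EPZ5676, 1639 and 1879 with MI-2-2 and 754 and 623 with iBET. All 4 libraries of the EPZ5676 and MI-2-2 groups lay above the 6 others. The log2 fold change against DMSO was 1.47 (SE 0.274, adjusted p = 0.00518, edgeR) for EPZ5676 and 1.49 (SE 0.274, adjusted p = 0.00466) for MI-2-2, and 1.13 and 1.15 without DMSO replicate 2. In a fit of only the 2 groups neither was called (adjusted p = 0.0656 and 0.0677, edgeR). Against MM-401 it was 1.02 and 1.03, both called but lost without any 1 library (0.91 to 1.13 and 0.94 to 1.13).

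Itgam, the alpha chain of Mac-1, rose more than its partner. It measured 481 and 279 CPM in DMSO, 656 and 811 with MM-401, 1862 and 2533 with EPZ5676, 2150 and 2729 with MI-2-2 and 316 and 265 with iBET. Again no EPZ5676 or MI-2-2 library overlapped any other group. Against DMSO the level was 5.79-fold higher with EPZ5676 (log2 2.53, SE 0.304, adjusted p = 0.00111, edgeR) and 6.42-fold higher with MI-2-2 (log2 2.68, SE 0.306, adjusted p = 0.000876). Leaving out DMSO replicate 2 gave log2 2.21 and 2.38, both still called. Against MM-401 the values were 1.58, lost without MM-401 replicate 1 (1.35 to 1.79), and 1.73, which held without any 1 library. Per kilobase Itgam stood at 0.360 and 0.382 of Itgb2 in the DMSO libraries, 0.482 and 0.553 with MM-401, 0.700 and 0.822 with EPZ5676, 0.797 and 0.882 with MI-2-2 and 0.254 and 0.259 with iBET. The libraries of the 5 groups therefore did not overlap in this ratio except between EPZ5676 and MI-2-2. With iBET Itgam was lower than with MM-401 (log2 -1.34, SE 0.292, adjusted p = 0.0272), a call lost when any 1 of those 4 libraries was left out, with values between -1.48 and -1.18.

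Itgal, the alpha chain of LFA-1, measured 207 and 85.6 CPM in DMSO, 269 and 299 with MM-401, 410 and 507 with EPZ5676, 554 and 619 with MI-2-2 and 193 and 212 with iBET. The DMSO libraries differed 2.42-fold from each other, and all EPZ5676 and MI-2-2 libraries exceeded both. The log2 fold change was 1.65 (SE 0.353, adjusted p = 0.00901, edgeR) for EPZ5676 and 2.00 (SE 0.357, adjusted p = 0.00405) for MI-2-2, and 1.17 and 1.53 without DMSO replicate 2. In a fit of only the 2 groups neither was called (adjusted p = 0.0764 and 0.0605, edgeR). Without EPZ5676 replicate 2 the EPZ5676 call was lost, within a range of 1.17 to 2.42 over the 4 libraries left out. Against MM-401 the change was 1.05 with MI-2-2 (SE 0.347, adjusted p = 0.0481) and 0.69 with EPZ5676 (SE 0.345, adjusted p = 0.157). The former was lost with any 1 library left out (0.97 to 1.12).

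Itgax (CD11c), known from dendritic cells and macrophages, was a low-count gene. It had 3 and 5 reads in DMSO, 5 and 5 with MM-401, 93 and 97 with EPZ5676, 43 and 106 with MI-2-2 and 4 and 2 with iBET. Only the EPZ5676 and MI-2-2 libraries held more than 5 reads. The fitted log2 fold changes against DMSO were 4.66 (SE 0.577, adjusted p = 0.00121, edgeR) and 4.00 (SE 0.571, adjusted p = 0.00177). Without DMSO replicate 2 both were larger and still called, with 5.24 for EPZ5676, and against MM-401 they were 4.40 and 3.74. Its mean level was 0.945 CPM per kb at most, with EPZ5676, where that of Itgam was 438. Itgad, the remaining β2 partner, stayed at 0 to 16 reads and was not tested.

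Cell-type markers also differed between the groups. The summed level of 8 neutrophil markers was 642 to 3531 CPM in DMSO, 4478 to 5859 with MM-401, 49000 to 67130 with EPZ5676, 44120 to 44980 with MI-2-2 and 485 to 1139 with iBET, and all 8 were called higher with both EPZ5676 and MI-2-2. Of 7 monocyte and macrophage markers 5 were called higher with EPZ5676 and 5 with MI-2-2, where 18.7% and 20.2% of all genes were. Their sum was 1157 to 1719 CPM in DMSO, 1441 to 1767 with EPZ5676, overlapping DMSO, and 1991 to 2243 with MI-2-2. Ly6c2, the highest of them in each group, was not called with either, nor was Cx3cr1. Progenitor markers summed to 3081 to 3327 CPM with EPZ5676 and 2026 to 2692 with MI-2-2, below the DMSO range given above. Of these 8 markers 5 were called lower with EPZ5676 and 6 with MI-2-2, beside 19.4% and 21.2% of all genes. Kit and Flt3 were not called with either. The part of these cell-type differences in the β2 integrin levels was not tested, and in bulk RNA more cells of a type and more RNA per cell cannot be told apart.

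The promoters of Itgam and Itgax, genes that lie 11055 bases apart on the same strand and both rose with EPZ5676 and MI-2-2, and of Alcam, which rose with them from another chromosome, are shown because these 3 genes had the largest rises against DMSO of the adhesion genes called for both inhibitors. Each is a window of 300 bases on build GRCm38.p6, 5′ to 3′ on the gene's strand. It runs from 250 bases before the RefSeq start of the gene to 50 after it. The windows are Itgam chr7:128062390-128062689 (plus strand), Itgax chr7:128129300-128129599 (plus strand) and Alcam chr16:52453032-52453331 (minus strand). The Alcam window lies inside the gene span annotated in GENCODE M21 (chr16:52248996-52454074), whose start differs from the RefSeq start used here. Capitals mark the letters GAGGAA or, for the other strand, TTCCTC, a form of the binding site of PU.1. The shorter core GGAA that ETS factors share was neither marked nor counted, and it also occurs in the Itgax window.
Itgam: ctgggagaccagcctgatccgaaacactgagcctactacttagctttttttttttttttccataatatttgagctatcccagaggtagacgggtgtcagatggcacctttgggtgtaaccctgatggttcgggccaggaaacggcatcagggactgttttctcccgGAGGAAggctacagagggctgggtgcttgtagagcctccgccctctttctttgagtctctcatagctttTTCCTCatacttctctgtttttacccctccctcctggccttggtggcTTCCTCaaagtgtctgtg
Itgax: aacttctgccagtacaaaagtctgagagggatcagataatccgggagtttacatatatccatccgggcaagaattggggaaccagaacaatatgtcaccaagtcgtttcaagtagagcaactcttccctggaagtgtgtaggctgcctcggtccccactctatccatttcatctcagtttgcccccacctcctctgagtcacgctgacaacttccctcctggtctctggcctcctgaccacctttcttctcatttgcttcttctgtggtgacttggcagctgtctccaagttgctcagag
Alcam: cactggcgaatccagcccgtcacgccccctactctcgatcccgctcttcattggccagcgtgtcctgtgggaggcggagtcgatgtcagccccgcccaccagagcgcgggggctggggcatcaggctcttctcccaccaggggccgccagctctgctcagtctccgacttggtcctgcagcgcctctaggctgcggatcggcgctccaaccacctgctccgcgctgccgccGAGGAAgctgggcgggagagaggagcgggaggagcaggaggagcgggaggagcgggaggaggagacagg
The Itgam window held the letters 3 times, at -84, -15 and +32 from the start, Alcam once at -19 and Itgax not at all. Among all 32851 promoter windows 28.3% held them at least once and 0.685% held them 3 or more times. Of the adhesion genes 24 were matched to 26 windows and 12 of the 24 held the letters in at least 1 window. This is a share of genes and not of windows, so it is not compared with the 28.3%. Among the 12 were Itga3, Itga11 and Itgb6, which did not pass the filter on low counts. A match of 6 letters is a description of the sequence and shows no binding.

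**Figure D3:**
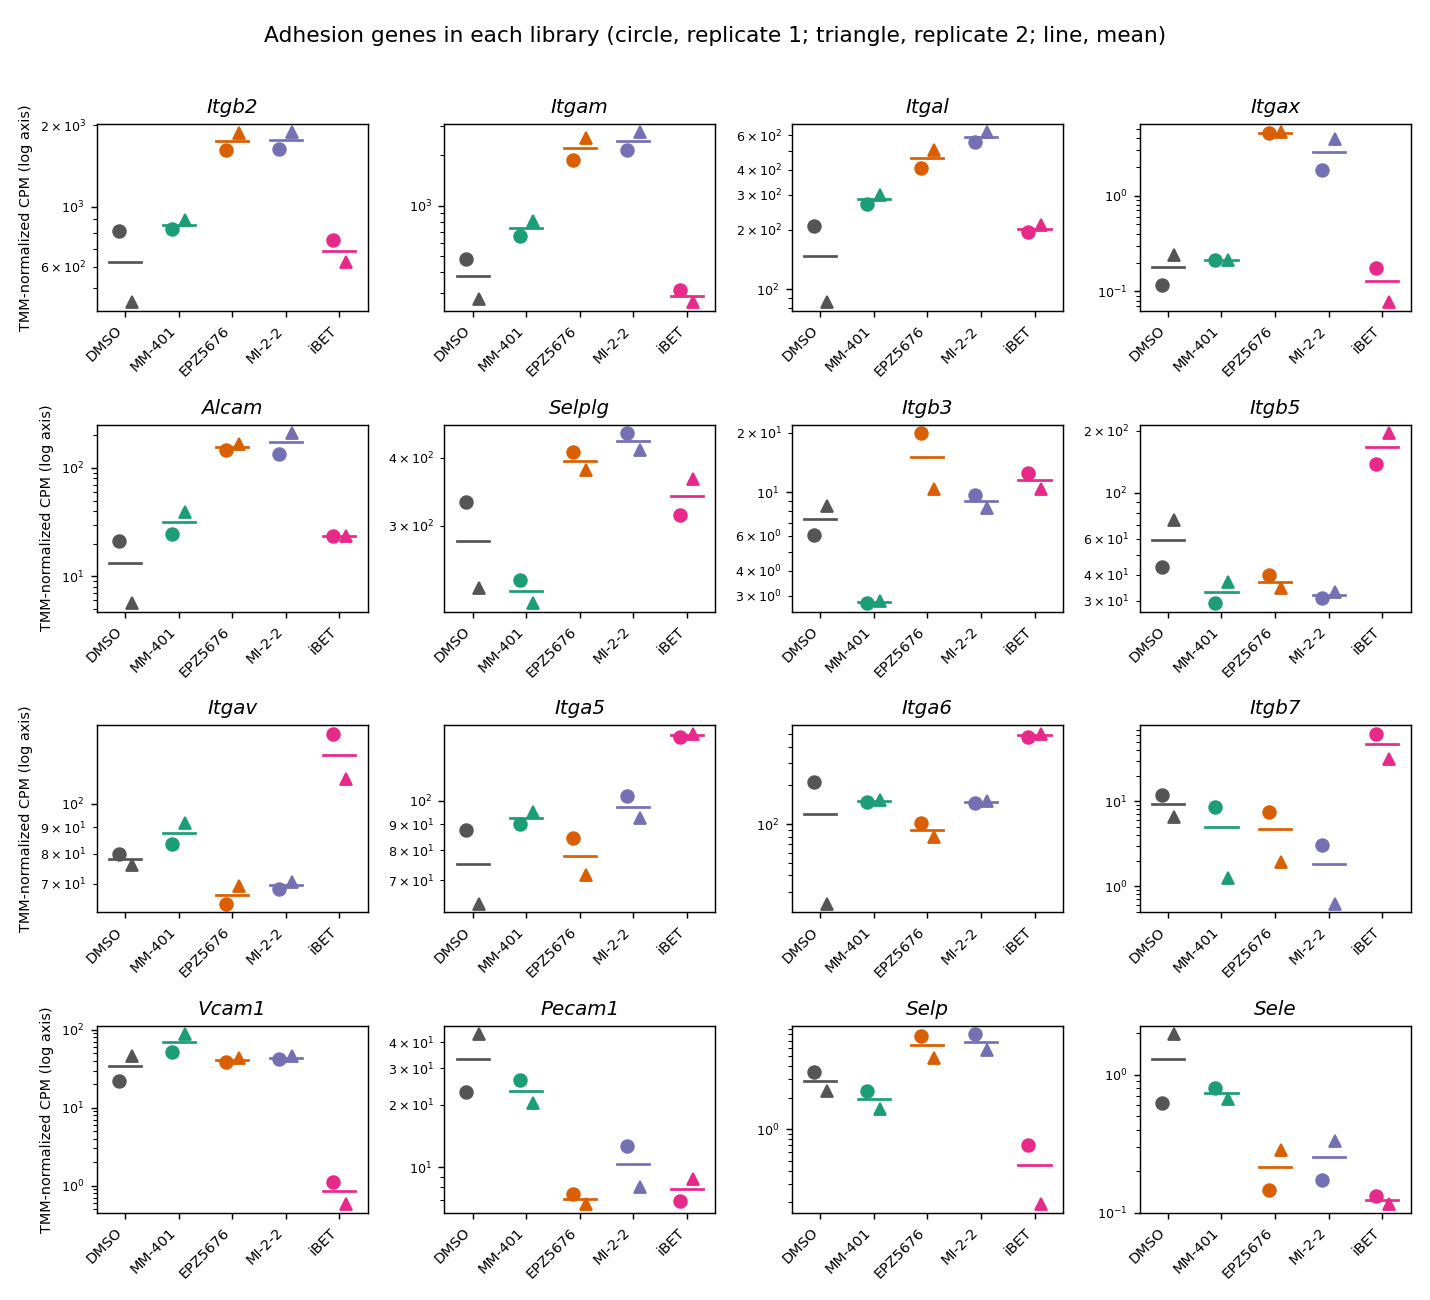
TMM-normalized CPM (log axis, own scale in each panel) of 16 adhesion genes in the 10 libraries, with circles for replicate 1, triangles for replicate 2 and a line at the group mean. Itgb2, Itgam, Itgal, Itgax and Alcam stand above the other groups in all EPZ5676 and MI-2-2 libraries, Itgb5, Itga5, Itgav, Itga6 and Itgb7 are highest with iBET, and Vcam1 and Selp are lowest with iBET.

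Among the other integrins iBET raised Itgb5, Itgav and Itga5 against DMSO. Itgb5, which pairs with αv in a vitronectin receptor, measured 43.7 and 74.0 CPM in DMSO, 29.3 and 37.2 with MM-401, 39.9 and 34.5 with EPZ5676, 31.1 and 32.9 with MI-2-2 and 138 and 195 with iBET. Both iBET libraries lay above all others. The log2 fold change was 1.50 against DMSO (SE 0.270, adjusted p = 0.0130, edgeR) and 2.33 against MM-401 (SE 0.278, adjusted p = 0.00426). The call against DMSO was lost without iBET replicate 2, within 1.18 to 1.93 over the libraries left out. With MI-2-2 Itgb5 was lower than in DMSO (log2 -0.88, adjusted p = 0.0318), but without DMSO replicate 2 the value was -0.42 and not called, and the call was also lost without either MI-2-2 library. Itgav, the alpha chain, measured 79.9 and 76.2 CPM in DMSO and 136 and 111 with iBET, while the 6 libraries of the other inhibitors lay between 64.1 and 91.8. It rose with iBET by 0.67 on the log2 scale (SE 0.125, adjusted p = 0.0152), and by 0.63 without DMSO replicate 2. Leaving out either iBET library ended the call (0.52 to 0.81).

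Itga5, the fibronectin receptor chain, measured 87.7 and 63.0 CPM in DMSO, 133 and 135 with iBET and 71.7 to 102 in the 6 libraries of the other inhibitors. It was higher with iBET than in DMSO by 0.83 (SE 0.166, adjusted p = 0.0187, edgeR) and 0.61 without DMSO replicate 2, and was not called without either iBET library (0.61 to 1.09). Itgb1, its partner, reached 451 and 495 CPM with iBET against 343 and 358 in DMSO, without overlap, but was not called (log2 0.43, SE 0.173, adjusted p = 0.130). Itga4, the alpha chain of VLA-4, measured 196 and 202 CPM in DMSO, 241 and 292 with MM-401, 154 and 163 with EPZ5676, 173 and 216 with MI-2-2 and 230 and 249 with iBET. It was not called against DMSO, and against MM-401 it was lower with EPZ5676 (log2 -0.75, SE 0.147, adjusted p = 0.00743) and with MI-2-2 (log2 -0.45, SE 0.146, adjusted p = 0.0437). The former was lost without MM-401 replicate 2 (-0.88 to -0.61) and the latter without MI-2-2 replicate 1 or either MM-401 library (-0.62 to -0.30).

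Itgb3, which pairs with αv or with the platelet chain Itga2b, measured 6.08 and 8.53 CPM in DMSO, 2.75 and 2.82 with MM-401, 19.9 and 10.4 with EPZ5676, 9.63 and 8.33 with MI-2-2 and 12.6 and 10.4 with iBET. The MM-401 libraries were below all others. Relative to MM-401 the gene was higher with EPZ5676 by 2.44 (SE 0.348, adjusted p = 0.00254, edgeR), with MI-2-2 by 1.69 (SE 0.342, adjusted p = 0.00792) and with iBET by 2.04 (SE 0.344, adjusted p = 0.0116). With MI-2-2 the call was lost without either MM-401 library (1.58 to 1.79), and with iBET without any 1 of the 4 libraries (1.90 to 2.17). Against DMSO only EPZ5676 was called (log2 1.05, SE 0.329, adjusted p = 0.0377), and not without DMSO replicate 1 or EPZ5676 replicate 1 (0.51 to 1.45 over the libraries left out). Itga2b stayed between 0.240 and 2.95 CPM and was not called. Beside these, 8 megakaryocyte and platelet markers summed to 4.32 to 5.06 CPM in DMSO, 7.73 to 8.62 with MM-401, 35.4 to 51.4 with EPZ5676, 30.6 to 76.1 with MI-2-2 and 2.48 to 2.60 with iBET. Vwf was the highest of them with EPZ5676 and MI-2-2. Of the 6 tested, 5 were called higher with each, beside 18.7% and 20.2% of all genes. The part of these markers in the Itgb3 result was not tested.

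The collagen receptor chain Itga10 was low, with 157 and 132 reads in DMSO, 156 and 114 with MM-401, 72 and 55 with EPZ5676, 98 and 93 with MI-2-2 and 82 and 100 with iBET. It was lower with EPZ5676 than in DMSO (log2 -1.03, SE 0.285, adjusted p = 0.0239, edgeR), a call lost without EPZ5676 replicate 2 (-1.26 to -0.83), and lower than with MM-401 (log2 -0.90, SE 0.284, adjusted p = 0.0426), a call lost without any 1 library (-1.13 to -0.66). Itga8 had 21 and 14 reads with EPZ5676 and 1 and 3 with MM-401 (log2 3.24, SE 0.724, adjusted p = 0.0125). That call was lost without EPZ5676 replicate 1 or either MM-401 library (2.68 to 4.15), and at 1 to 10 reads in every library outside EPZ5676 the gene is close to the limit of detection. Of the rest of the integrins tested, Itga1, Itga6, Itga7, Itgae, Itgb4 and Itgb7 were not called against DMSO or MM-401 for any inhibitor.

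Several of these had a wide spread between libraries, and Itga1 differed 7.56-fold between the DMSO libraries. Itga6, the laminin receptor chain, measured 214 and 24.2 CPM in DMSO, 149 and 155 with MM-401, 102 and 79.2 with EPZ5676, 145 and 150 with MI-2-2 and 472 and 504 with iBET. Both iBET libraries were the highest, and their rank per kilobase among the adhesion genes was 5 against 11 in DMSO, but the difference from DMSO, whose libraries lay 8.82-fold apart (0.1 CPM added), was not called (log2 2.03, SE 0.760, adjusted p = 0.110), nor was that from MM-401 (log2 1.69, SE 0.751, adjusted p = 0.193). Itgb7, which pairs with Itga4 in the gut-homing receptor, measured 11.8 and 6.57 CPM in DMSO, 8.58 and 1.26 with MM-401, 7.57 and 1.93 with EPZ5676, 3.04 and 0.621 with MI-2-2 and 62.6 and 31.7 with iBET. Here too the iBET libraries were highest, and the 2 libraries of a group differed by 1.78- to 6.38-fold in each of the 5 groups. The log2 difference of iBET was 2.36 from DMSO (SE 1.00, adjusted p = 0.148) and 3.26 from MM-401 (SE 1.05, adjusted p = 0.0857).

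**Figure D4:**
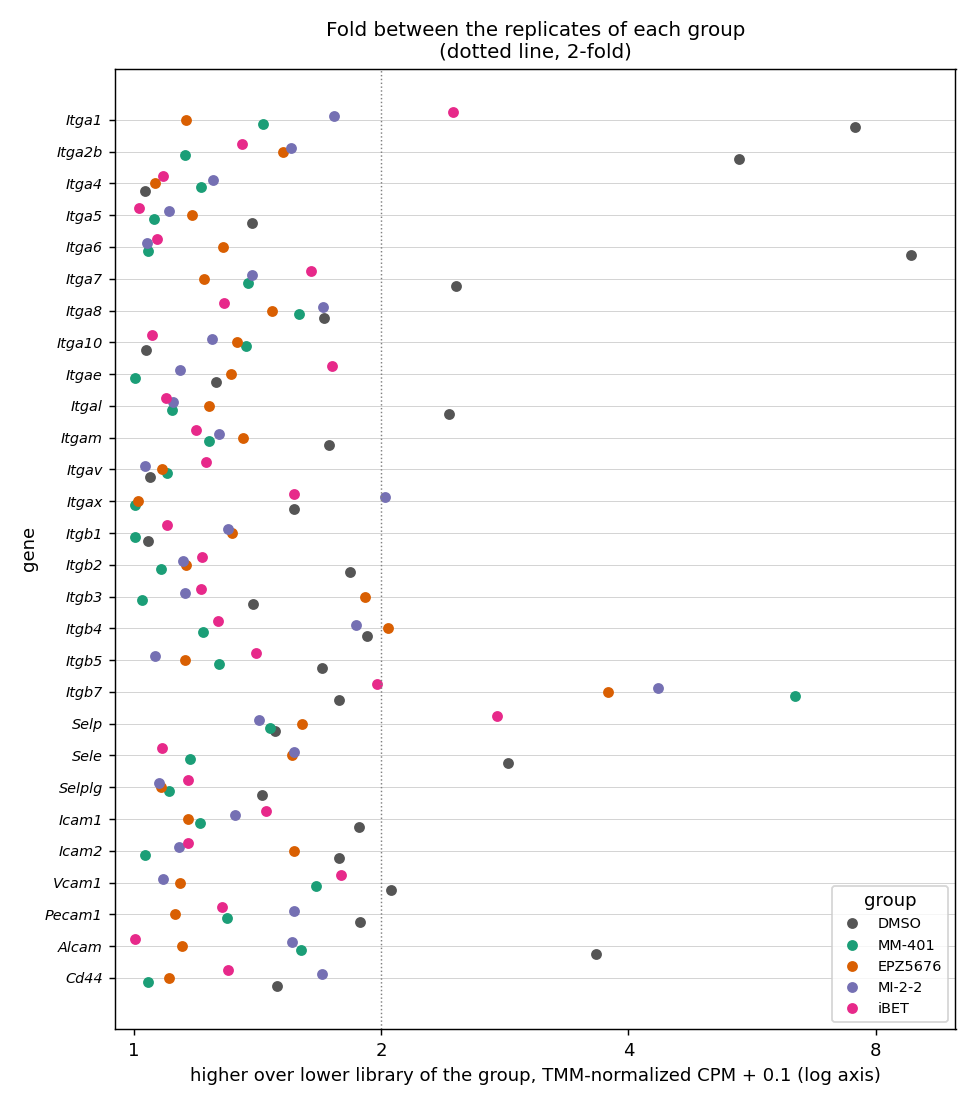
Fold between the 2 libraries of each group (higher over lower, TMM-normalized CPM with 0.1 added, log axis) for the 28 tested adhesion genes, colored by group, with a dotted line at 2-fold. In DMSO 8 genes exceed 2-fold, with Itga6 farthest out at 8.82, while MM-401 has 1, Itgb7, and the other inhibitors have 2 each.

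P-selectin and E-selectin are proteins of activated endothelium and, for P-selectin, platelets, and both genes were near the floor in these cells. Selp measured 3.47 and 2.30 CPM in DMSO, 2.33 and 1.56 with MM-401, 7.76 and 4.80 with EPZ5676, 8.02 and 5.63 with MI-2-2 and 0.707 and 0.191 with iBET. The iBET libraries lay below all others and the EPZ5676 and MI-2-2 libraries above all others. It fell with iBET against DMSO by 2.70 on the log2 scale (SE 0.596, adjusted p = 0.0252, edgeR), a call lost without iBET replicate 2 (-3.87 to -2.02). Relative to MM-401 it was higher with EPZ5676 (log2 1.69, SE 0.535, adjusted p = 0.0433) and MI-2-2 (log2 1.81, SE 0.535, adjusted p = 0.0323), both lost without any 1 library (1.31 to 2.01 and 1.54 to 2.13).

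Sele had 16 and 41 reads in DMSO, 19 and 16 with MM-401, 3 and 6 with EPZ5676, 4 and 9 with MI-2-2 and 3 and 3 with iBET. The DMSO and MM-401 libraries were above those of the other inhibitors. Its log2 fold changes against DMSO were -2.55 with EPZ5676 (SE 0.688, adjusted p = 0.0219, edgeR), -2.31 with MI-2-2 (SE 0.660, adjusted p = 0.0248) and -3.33 with iBET (SE 0.725, adjusted p = 0.0242). Without DMSO replicate 2 they were -1.49, -1.24 and -2.29, and only iBET was still called. Each call was also lost without either library of its inhibitor, over ranges of -3.16 to -1.49, -2.92 to -1.24 and -3.93 to -2.29. Against MM-401 Sele was not called for any inhibitor.

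Selplg, the gene of PSGL-1, the main selectin ligand of myeloid cells, was abundant throughout. It measured 331 and 231 CPM in DMSO, 239 and 217 with MM-401, 410 and 380 with EPZ5676, 444 and 413 with MI-2-2 and 314 and 366 with iBET. The EPZ5676 and MI-2-2 libraries lay above all others. Against MM-401 the rise was 0.79 (SE 0.181, adjusted p = 0.0135, edgeR) for EPZ5676 and 0.91 (SE 0.181, adjusted p = 0.00754) for MI-2-2. The EPZ5676 call was lost without EPZ5676 replicate 1 or either MM-401 library (0.72 to 0.87) and that of MI-2-2 without MM-401 replicate 2 (0.84 to 0.99). Against DMSO it was 0.61 for MI-2-2 (SE 0.181, adjusted p = 0.0290), lost without DMSO replicate 2 (0.41) and without either MI-2-2 library (up to 0.90), and 0.49 for EPZ5676 (adjusted p = 0.0639).

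The immunoglobulin-family genes held the largest fall of all members. Vcam1, the counter-receptor of VLA-4, measured 22.3 and 45.9 CPM in DMSO, 52.7 and 87.9 with MM-401, 38.6 and 43.9 with EPZ5676, 42.1 and 45.7 with MI-2-2 and 1.11 and 0.574 with iBET. The iBET libraries lay far below all others, which overlapped in part. Expression fell 40.9-fold against DMSO (log2 -5.35, SE 0.490, adjusted p = 0.00194, edgeR), 84.3-fold against MM-401 (log2 -6.40, SE 0.504, adjusted p = 0.000833) and was 49.4-fold lower than with EPZ5676. The calls against DMSO and MM-401 held with any 1 library left out, with -5.87 to -4.75 and -6.92 to -5.98.

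Pecam1 (CD31), which binds itself on leukocytes and endothelium, measured 23.1 and 43.7 CPM in DMSO, 26.4 and 20.3 with MM-401, 7.47 and 6.64 with EPZ5676, 12.7 and 8.04 with MI-2-2 and 6.85 and 8.80 with iBET. The libraries of these last 3 inhibitors lay below all DMSO and MM-401 libraries. It was 4.73-fold lower with EPZ5676 (log2 -2.24, SE 0.359, adjusted p = 0.00283, edgeR), 3.23-fold lower with MI-2-2 (log2 -1.69, SE 0.351, adjusted p = 0.00718) and 4.26-fold lower with iBET (log2 -2.09, SE 0.356, adjusted p = 0.0111) than in DMSO. Without DMSO replicate 2 the values were -1.69, -1.13 and -1.56, all still called. Without MI-2-2 replicate 2 that for MI-2-2 was not called, nor was that for iBET without either iBET library (-2.08 to -1.13 and -2.47 to -1.56 over the libraries left out). Against MM-401 it was lower as well, by -1.73 for EPZ5676 (adjusted p = 0.00908), -1.18 for MI-2-2 (adjusted p = 0.0320) and -1.58 for iBET (adjusted p = 0.0288), calls lost in 2, 3 and 4 of the 4 fits with a library left out (-1.91 to -1.53, -1.54 to -0.88 and -1.77 to -1.37).

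Alcam (CD166), the ligand of CD6, rose with both inhibitors of the fusion complex. It measured 21.0 and 5.66 CPM in DMSO, 24.3 and 38.9 with MM-401, 146 and 168 with EPZ5676, 135 and 210 with MI-2-2 and 23.7 and 23.6 with iBET. Every EPZ5676 and MI-2-2 library lay above all others. Against DMSO the fold was 11.7 for EPZ5676 (log2 3.55, SE 0.556, adjusted p = 0.00262, edgeR) and 12.9 for MI-2-2 (log2 3.68, SE 0.559, adjusted p = 0.00219), and 2.93 and 3.07 on the log2 scale without DMSO replicate 2. Against MM-401 it was 2.31 (SE 0.524, adjusted p = 0.0131) and 2.45 (SE 0.526, adjusted p = 0.00996). The EPZ5676 call was lost without EPZ5676 replicate 2 or either MM-401 library (2.01 to 2.69), the MI-2-2 call without MI-2-2 replicate 2 or MM-401 replicate 1 (2.09 to 2.82).

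Icam2, a ligand of LFA-1, measured 30.9 and 54.9 CPM in DMSO, 49.3 and 50.9 with MM-401, 19.4 and 30.5 with EPZ5676, 17.3 and 19.7 with MI-2-2 and 29.4 and 34.1 with iBET. Its mean was lowest with MI-2-2, whose libraries overlapped those of EPZ5676, with a log2 difference of -1.21 from DMSO (SE 0.299, adjusted p = 0.0141, edgeR) and -1.44 from MM-401 (SE 0.300, adjusted p = 0.00879). The first of these was -0.71 and not called without DMSO replicate 2, and was also lost without either MI-2-2 library (-1.57 to -0.71 in all). The second was lost without MI-2-2 replicate 1 or MM-401 replicate 2 (-1.53 to -1.35). EPZ5676 was lower than MM-401 by -1.01 (SE 0.297, adjusted p = 0.0338), lost in 3 of 4 fits with a library left out (-1.37 to -0.72). Icam1 lay between 8.71 and 26.5 CPM and was not called in any comparison. Beside the genes shared with endothelium, Pecam1, Vcam1, Icam2, Selp and Sele, 7 endothelial markers summed to 0 to 2.83 CPM in any library, and Emcn and Robo4 had no read in any. Their part in these results was not tested.

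Cd44, the hyaluronan receptor, measured 130 and 194 CPM in DMSO, 112 and 117 with MM-401, 233 and 257 with EPZ5676, 198 and 335 with MI-2-2 and 150 and 196 with iBET. The EPZ5676 and MI-2-2 libraries were the highest, those of MM-401 the lowest. It was called only against MM-401, at 1.10 for EPZ5676 (SE 0.280, adjusted p = 0.0202, edgeR) and 1.22 for MI-2-2 (SE 0.280, adjusted p = 0.0129). The EPZ5676 call was lost without any 1 library (1.03 to 1.17), that for MI-2-2 without MI-2-2 replicate 2 or either MM-401 library (0.79 to 1.55).

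With MM-401 0 adhesion genes passed edgeR's adjusted threshold against DMSO. Past 2-fold in mean level were 4 adhesion genes, beside 6.44% of genes. At an unadjusted p under 0.05 there were 7 of 28, beside 1450 of 12971 genes, and the smallest adjusted p among the adhesion genes was 0.292. DESeq2 called 2 adhesion genes, Itgam (higher) and Itgb3 (lower), beside 2.26% of all genes, and without DMSO replicate 1 edgeR called 9, beside 10.2%. The edgeR log2 fold changes of the 7 were 0.95 for Itgam, 0.96 for Itgal, 1.05 for Vcam1, 1.24 for Alcam, 0.43 for Itga4, -0.82 for Itgb5 and -1.39 for Itgb3. For each of them both MM-401 libraries lay outside the range of the DMSO libraries. Selection by unadjusted p makes such separation likely. It also held for members with an unadjusted p above 0.05, such as Itgb2, Itga5 and Cd44, so it adds no support.

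Against MM-401 as the reference, where the libraries agreed more closely, 14 of 28 adhesion genes were called with EPZ5676 (beside 33.3% of all genes, 16.7% higher and 16.6% lower), 12 with MI-2-2 (42.9%, beside 35.7%, 18.0% higher and 17.6% lower) and 6 with iBET (21.4%, beside 11.4%, 5.48% higher and 5.96% lower). Of these calls 9 were higher and 5 lower with EPZ5676, 9 higher and 3 lower with MI-2-2, and 3 in each direction with iBET. The lower calls for EPZ5676 included Itgav, at 64.1 and 69.3 CPM against 83.7 and 91.8 (log2 -0.39, SE 0.125, adjusted p = 0.0441, edgeR), which was lost without any 1 library (-0.46 to -0.33), and Itgav was higher with iBET than with MM-401 (log2 0.50, SE 0.125, adjusted p = 0.0419), also lost without any 1 library (0.35 to 0.64). The counts themselves fell for each of these inhibitors when 1 library was left out. The shares of all genes in those fits are not given here. Whether the adhesion genes stayed above them is therefore not shown.

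EPZ5676 and MI-2-2, which act on different proteins of the fusion complex, were compared directly. By edgeR 0 of the 28 adhesion genes differed, beside 0.0154% of all genes (2 of 12971, 0.00771% in each direction). Past 2-fold were 2 adhesion genes, beside 3.37% of genes. At an unadjusted p under 0.05 there were 1 adhesion gene, Itga8, and 937 genes in all, and DESeq2 called 0 adhesion genes. The log2 differences (EPZ5676 minus MI-2-2) of the members raised by both were -0.15 for Itgam (SE 0.287), -0.01 for Itgb2 (SE 0.269), -0.36 for Itgal (SE 0.344), 0.66 for Itgax (SE 0.455) and -0.13 for Alcam (SE 0.496). With errors of this size a missed threshold does not show that the inhibitors act alike.

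EPZ5676 and iBET gave the most calls. Of the 28 adhesion genes 16 were called (57.1%, beside 37.6% of all genes, 19.1% higher and 18.5% lower), 9 higher and 7 lower with EPZ5676. Fewer were called when 1 library was left out, and the shares of all genes in those fits are not given here. Higher with EPZ5676 were all 3 tested β2 alpha chains, with log2 differences of 2.92 for Itgam, 1.18 for Itgal and 5.13 for Itgax, and their beta chain at 1.34. Vcam1 (5.63), Selp (3.81), Itga1 (2.89), Alcam (2.73) and Itga8 (2.49) were also higher. Those lower with EPZ5676, and so higher with iBET, were all integrin chains of the matrix-binding or α4 families: Itgb7 (-3.31), Itga6 (-2.43), Itgb5 (-2.16), Itgav (-0.89), Itgb1 (-0.85), Itga5 (-0.78) and Itga4 (-0.60). The calls of Itgam, Itgax, Vcam1, Selp, Itgb5 and Itgav held with any 1 library left out. Those of Itga1, Itga6, Itga8, Itgal and Itgb7 were lost with each of the 4 libraries, at 2.36 to 3.76, -2.62 to -2.26, 2.15 to 2.81, 1.02 to 1.33 and -4.61 to -2.64. Itgb2, Alcam and Itgb1 were lost without iBET replicate 2, Itga5 without EPZ5676 replicate 2 or iBET replicate 2, and Itga4 without any library but iBET replicate 1, over ranges of 1.21 to 1.48, 2.63 to 2.83, -1.07 to -0.67, -0.90 to -0.67 and -0.66 to -0.54.

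Among the heterodimer pairs the chains did not move together in all cases. Per kilobase Itgav stood at 0.341 to 0.946 of Itgb5 in the 8 libraries outside iBET and at 0.189 and 0.326 with iBET. Itga6 stood at 0.460 to 0.473 of Itgb1 with iBET and at 0.0305 to 0.292 elsewhere. Itgal stayed at 0.0897 to 0.158 of Itgb2 across the 10 libraries, a much narrower range than that of Itgam. These are ratios of transcripts and do not measure assembled receptors.

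The genes that switch integrins on and link them to actin were read from lists around the adhesion genes. Of 18 tested genes of the activation module (talins, kindlins, RAP1 and their partners) 8 were called higher and none lower with EPZ5676, 8 higher and 2 lower with MI-2-2, none higher and 2 lower with iBET and none with MM-401. Of 23 tested genes of focal adhesions and integrin signaling 13 were higher with EPZ5676 and 14 with MI-2-2, with none lower, and 4 were higher and 1 lower with iBET. Of all genes 18.7% were higher with EPZ5676, and 20.2% and 6.38% with MI-2-2 and iBET. Median log2 fold changes of the focal adhesion list were 1.12 with EPZ5676, 1.13 with MI-2-2, 0.28 with iBET and 0.27 with MM-401, and those of the activation list 0.46, 0.52, 0.08 and 0.24.

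Fgr, a Src-family kinase that acts downstream of β2 integrins, measured 7.87 and 0.959 CPM in DMSO, 134 and 135 with EPZ5676 and 102 and 119 with MI-2-2. It was far above DMSO in all 4 of these libraries, with log2 fold changes of 4.90 (SE 0.712, adjusted p = 0.00203, edgeR) and 4.62 (SE 0.704, adjusted p = 0.00223). The actin cross-linkers Actn1 (log2 2.26 and 2.44) and Flna (log2 1.27 and 1.12) and the adaptor Fyb (log2 2.29 and 2.34) were also called higher with EPZ5676 and MI-2-2. With iBET the parvin gene Parvb (log2 -2.87, SE 0.504, adjusted p = 0.0121) and the RAP1 exchange factor gene Rapgef3 (log2 -1.33, SE 0.315, adjusted p = 0.0316) were lower.

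Of the genes listed for selectin ligand glycosylation, which include the selectin ligand gene Glg1, 18 were tested. Their calls went in both directions at shares near those of all genes for EPZ5676 and MI-2-2 (38.1% and 41.4%). Of the 18, 4 were higher and 2 lower with EPZ5676, 6 higher and 2 lower with MI-2-2, 3 higher and 1 lower with iBET and none with MM-401, with medians of 0.29, 0.38, 0.46 and 0.16. Fut4, a fucosyltransferase, was lower with EPZ5676 (log2 -2.09, adjusted p = 0.00248, edgeR), MI-2-2 (log2 -1.76, adjusted p = 0.00423) and iBET (log2 -1.41, adjusted p = 0.0256). Gcnt1, which branches the glycans of PSGL-1, was higher with EPZ5676 (log2 1.32) and MI-2-2 (log2 1.76), as was C1galt1, which extends them (1.23 and 1.24), while St3gal1 was higher with MI-2-2 (log2 1.12, adjusted p = 0.0375).

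Of the secreted ligands of integrins and CD44, 13 of 30 listed genes were tested. As background, EPZ5676 gave calls against DMSO for 38.1% of all genes, MI-2-2 for 41.4% and iBET for 13.9%. With EPZ5676 4 were higher and 2 lower, with MI-2-2 5 and 2, with iBET none higher and 3 lower, and with MM-401 none, with medians of 1.08, 0.87, -1.95 and 0.02. Thbs1, the thrombospondin gene, was the most abundant of those named, at 1955 and 907 CPM in DMSO, 4236 and 1823 with EPZ5676, 7032 and 5294 with MI-2-2 and 67.2 and 43.7 with iBET. Its EPZ5676 libraries overlapped DMSO, its MI-2-2 libraries lay above and its iBET libraries below. It fell by 4.69 on the log2 scale with iBET (SE 0.553, adjusted p = 0.00398, edgeR) and rose by 2.11 with MI-2-2 (SE 0.493, adjusted p = 0.0115). Spp1, the osteopontin gene (log2 3.48 and 2.95), Mfge8, whose product bridges αv integrins to dying cells (3.61 and 4.42), and Col1a1 (5.46 and 4.65) were higher with EPZ5676 and MI-2-2. Col1a1 reached 18.9 CPM at most, beside the other stroma markers Col1a2, Col3a1, Dcn and Lum at 0 reads in all libraries.

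Among the other leukocyte adhesion molecules 24 genes were tested. For EPZ5676 8 were called higher and 1 lower, and for MI-2-2 9 higher and 2 lower. For iBET 1 was lower, and for MM-401 none was called. The medians were 0.68, 1.23, 0.04 and 0.16 in this order. In number, the calls for EPZ5676 and MI-2-2 were near the shares of all genes (38.1% and 41.4%). They were mostly higher, while all genes split almost evenly (18.7% higher and 19.4% lower for EPZ5676, 20.2% and 21.2% for MI-2-2). Siglec1, the sialic-acid receptor of macrophages, measured 1.64 and 0.959 CPM in DMSO, 24.3 and 28.3 with EPZ5676, 39.1 and 70.4 with MI-2-2 and 0.221 and 0.191 with iBET. It was higher with the first 2 (log2 4.32 and 5.38) and lower with iBET (log2 -2.64, SE 0.476, adjusted p = 0.0131, edgeR), with no overlap. L1cam (4.21 and 4.21), Cd9 (3.81 and 3.60) and Cd22 (4.69 and 4.84) were higher with EPZ5676 and MI-2-2. Of the genes named from these lists, Mfge8 with EPZ5676 (log2 2.29, adjusted p = 0.0540) and St3gal1 with MI-2-2 (log2 0.97, adjusted p = 0.0667) were called against DMSO but not against MM-401, and the others kept call and direction against MM-401.

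**Figure D5:**
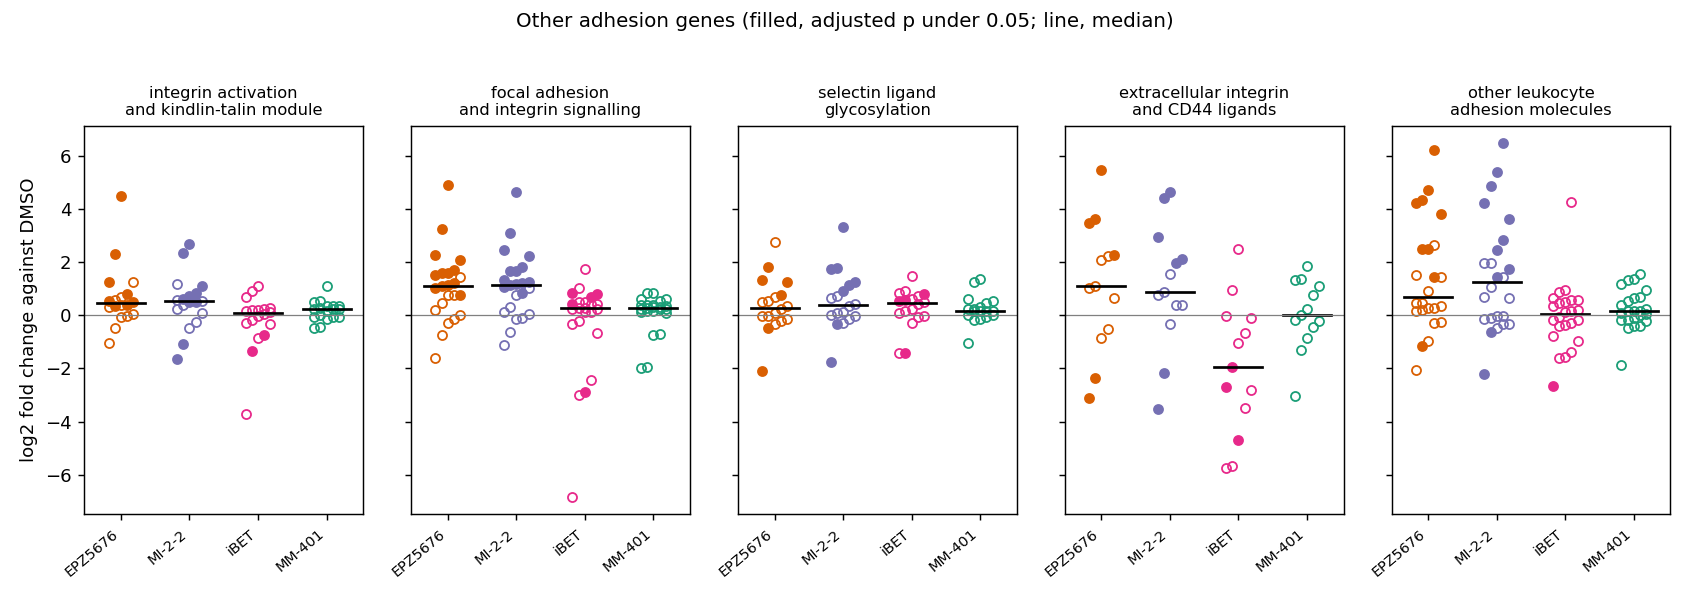
Log2 fold change against DMSO of the genes in 5 further adhesion lists, 1 point per tested gene, filled where the adjusted p was under 0.05, with a line at the median of each list. Focal adhesion genes lie mostly above 0 with EPZ5676 and MI-2-2 (medians 1.12 and 1.13), and extracellular ligand genes lie mostly below 0 with iBET (median -1.95).

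Some members share exon sequence with other annotated genes in GENCODE M21 (GRCm38). Itgam (chr7:128062640-128118491, plus strand) shares 3450 exon bases with the same-strand gene Gm49368, Itga10 1739 with Gm42957, Itga4 1124 with the opposite-strand gene Cerkl, Itgav 634 with the opposite-strand Gm13684, Itga8 372 with an antisense gene, and Selp 186 and 438 with a pair of opposite-strand genes. How reads in such stretches were assigned is not given in the sources used here. Itgb2 (chr10:77530252-77565708, plus strand), Itgal (chr7:127296260-127335138, plus strand), Itgax (chr7:128129547-128150657, plus strand) and Alcam (chr16:52248996-52454074, minus strand) share none.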

How the data were processed

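RNA was sequenced from 10 libraries, 2 in each of 5 groups assigned from the sample titles, and the authors deposited read counts per gene, listed by symbol and not normalized. The submitters' processing notes name TopHat2, Subread, DESeq and mm9. The sources used here give neither their versions nor the annotation, the strand setting or how reads shared between genes were handled. No read was aligned again.

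The counts entered edgeR 4.0.16 (R 4.3.3; glmQLFit and glmQLFTest after TMM and filterByExpr) in 1 fit of all 10 libraries, with 1 coefficient per group and Benjamini-Hochberg adjustment over the 12971 genes tested at 0.05. The standard error is the log2 fold change divided by the square root of F. The code was tested on simulated counts for EPZ5676 against DMSO only. Alternatives were DESeq2 1.42.0, its size factors, total-count scaling, no filter, a fit of only the 2 groups, a replicate block, a 2-fold rule (0.1 CPM added, mean of at least 1 CPM) and leaving out each library. Depth limits counting precision only, and with 2 libraries per group p-values rest on a shared estimate of the spread. Exon lengths and positions came from GENCODE M21 and promoters from RefSeq, both on GRCm38.

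The adhesion genes, the 5 further adhesion lists and the 8 marker lists (myeloid progenitor, monocyte and macrophage, neutrophil, megakaryocyte and platelet, mast cell and basophil, endothelium, T and B cell, stroma) were chosen with earlier results of these data known. Members called against DMSO or MM-401 were given in every library, the others by ranges. Up to 4 genes of each further list were named, by size of log2 fold change against DMSO, if called for EPZ5676, MI-2-2 or iBET and with a mean of 5 CPM or more in either group. Some genes that this rule takes are not reported here.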

Additional observations from a re-analysis of the deposited data

How the results depend on the processing

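In 9 comparisons 74 gene calls were made among the adhesion genes, and none changed direction under any alternative. In each comparison 7 alternatives were tried besides leaving out each library, and 23 of the 74 calls held in every fit with 1 library left out. Counts of called adhesion genes moved with the settings as follows, and the cause was not tested. For most of these counts the share of all genes called in the same fit is not given here. They therefore show no change particular to the adhesion genes. For EPZ5676 against DMSO the count of 9 became 14 with total-count scaling, 4 in a fit of only the 2 groups, and 6 to 15 with 1 library left out, the highest without DMSO replicate 1. For MI-2-2 against DMSO the count of 10 became 3 with only the 2 groups and 5 to 15 with 1 library left out, the lowest without MI-2-2 replicate 2. For iBET against DMSO the count of 7 became 0 with only the 2 groups, where edgeR called no gene at all, and 1 to 16 with 1 library left out, the lowest without iBET replicate 2 and the highest without DMSO replicate 1. Of the calls against DMSO with EPZ5676, Alcam, Itgam, Itgax and Pecam1 held with only the 2 groups, and with MI-2-2 the first 3 of these. For MM-401 against DMSO the count of 0 became 2 with DESeq2, 4 under the 2-fold rule and 0 to 9 with 1 library left out. For EPZ5676 against MI-2-2 the 2-fold rule gave 2, and no fit with 1 library left out gave any. For EPZ5676 against iBET (16) the range with 1 library left out was 6 to 11, for EPZ5676 against MM-401 (14) it was 3 to 7, and for MI-2-2 against MM-401 (12) it was 3 to 7. For iBET against MM-401 (6) it was 2 in each such fit, while DESeq2 gave 11 and the fit of only the 2 groups 17.

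Same-numbered libraries are not stated to be paired. Their deviations from the group means correlated across genes with r of 0.278 to 0.666 over 10 pairs of groups, a hint from the data and not from the design. Itgb7, Itga2b, Itgb4 and Selp were higher in the library numbered 1 in all 5 groups. Itga4, Itgb1, Icam1, Icam2 and Cd44 were higher in that numbered 2 in all 5. Fitting the replicate number as a block kept all 74 calls and gave 18 called adhesion genes with EPZ5676, 16 with MI-2-2, 10 with iBET and 0 with MM-401 against DMSO, and 13 with iBET against MM-401. The shares of all genes called in that fit are not given here, so these counts show nothing particular to the adhesion genes. Selp, Cd44, Itgb1 and Icam1 were among the added calls against DMSO for both EPZ5676 and MI-2-2.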

Other observations

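Basophil and mast cell markers, which belong in no comparison above, summed to 35.5 CPM in the lower and 133 CPM in the higher DMSO library, 48.0 to 54.5 with MM-401, 27.1 to 35.3 with EPZ5676, 23.5 to 23.8 with MI-2-2 and 23.4 to 24.8 with iBET, with Hdc the highest marker in DMSO at a mean of 66.2 CPM. Stroma markers summed to 0 CPM in both iBET libraries and to 6.16 to 19.0 CPM with EPZ5676, almost all of it Col1a1.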
